A study of Mus musculus with 6 samples.

Results

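Vascular smooth muscle cells and pericytes are the mural cells that wrap the endothelium of vessels, and 10 genes that mark them were followed in mouse calf muscle with and without overexpression of integrin alpha7. The genes were Rgs5, Acta2, Myh11, Tagln, Cnn1, Smtn, Lmod1, Pdgfrb, Cspg4 and Mylk. Every probe set whose annotation names exactly 1 gene symbol, and one of these, was taken, which gave 20 of the 45037 probe sets that were not controls. All 10 genes were found, among 18193 genes named on the array, with 4 probe sets for Rgs5, 3 each for Acta2 and Mylk, 2 each for Myh11, Pdgfrb and Cspg4, and 1 each for Tagln, Cnn1, Smtn and Lmod1.

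The transgenic group was integrin alpha7 transgenic mice, and the wild type group was control mice of the same labelled background, SJ6/C57BL6. All mice were female, 5 weeks old and not fasted, and RNA came from gastrocnemius and soleus muscle together. Each genotype had 3 arrays, each array carried a pool of 6 animals, and 18 animals stood behind each genotype. The pools are separate biological samples per the series' design, so p-values measure the spread between pools. The titles of the controls add the word intronic, which the sources used here do not explain, and they name neither the promoter nor the cell type that drives the transgene. The integrin alpha7 gene Itga7 had signals of 2498, 2144 and 2072 on the transgenic arrays and 254, 308 and 313 on the wild type arrays, so the arrays match their labels. The muscle label is borne out by Mylpf, a light chain of fast muscle myosin, with signals of 20592 to 21755 in transgenic and 23240 to 23766 in wild type muscle. Array medians were 34.0 to 37.3 in the transgenic group and 36.2 to 38.4 in the wild type group.

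Mural cells contract through smooth muscle actin and myosin, and the light chain kinase starts that contraction when calcium rises. Pericytes are recruited to capillaries by platelet-derived growth factor from endothelial cells, which acts on the receptor encoded by Pdgfrb. The contractile genes are switched on by serum response factor with its partner myocardin, through a promoter element called the CArG box. Several of the genes are not exclusive to mural cells: Mylk is also transcribed in many cells that are not muscle, Acta2 in myofibroblasts and Cspg4 in glial precursor cells. In whole muscle, fewer cells of a type and less RNA per cell cannot be told apart.

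The promoters of Acta2 and Rgs5 show the element and a mural cell gene in which this search did not find it. Acta2 was printed because it is a classical serum response factor target, and Rgs5 because it held the only called probe set. Both are RefSeq sequences of 300 bases, from 250 before to 50 after the annotated start, in build GRCm38.p6. Capitals mark CArG boxes, here CC, then 6 bases of which at most 1 is G or C, then GG, a form that reads the same way on both strands. The Acta2 window is chr19:34255324-34255623 on the minus strand and the Rgs5 window is chr1:169655251-169655550 on the plus strand.
Acta2: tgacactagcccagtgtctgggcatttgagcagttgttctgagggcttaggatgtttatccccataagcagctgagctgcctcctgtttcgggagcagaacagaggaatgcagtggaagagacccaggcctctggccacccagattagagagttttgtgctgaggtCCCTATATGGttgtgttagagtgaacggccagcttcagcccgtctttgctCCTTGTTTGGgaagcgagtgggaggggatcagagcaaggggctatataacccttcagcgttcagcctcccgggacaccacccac
Rgs5: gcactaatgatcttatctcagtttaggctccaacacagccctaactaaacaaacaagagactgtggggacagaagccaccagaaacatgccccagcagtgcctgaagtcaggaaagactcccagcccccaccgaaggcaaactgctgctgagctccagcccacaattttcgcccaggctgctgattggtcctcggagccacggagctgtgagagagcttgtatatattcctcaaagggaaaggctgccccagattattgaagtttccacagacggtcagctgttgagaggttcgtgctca

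The 2 boxes of Acta2 began 84 and 34 bases before the annotated start, which was not checked here, and each held 1 G or C in its core. Such a box stood in 9.98% of the 32851 promoters of that table, and at least 2 of them in 0.822%. With no G or C allowed in the core the share was 1.63%, and no member promoter then had a match. Promoters were matched for 7 of the 10 members, and those of Myh11, Tagln and Pdgfrb were not searched. Acta2 was the only one of those 7 with a box in this window. A match describes letters and is not evidence of binding.

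A single probe set of the 18 tested differed between the genotypes, that of Rgs5 named 1420940_x_at, which was 2.22-fold higher in transgenic muscle. Of all 27022 probe sets tested, 33 passed, or 0.122%, of which 0.0999% were higher and 0.0222% lower. A probe set was tested if its average log2(signal + 16) was in the brightest part of the array, past the 40th percentile or a signal near 21.7, and this removed 1 probe set of Myh11 and the only one of Lmod1. The test was limma's moderated test with Benjamini-Hochberg adjustment over all 27022, at an adjusted p of 0.05, and log2 differences are transgenic minus wild type on the log2(signal + 16) scale. Of the 18 member probe sets, 9 had positive and 9 negative differences, with a median of 0.01, against a median of -0.01 over all probe sets tested.

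**Figure D1:**
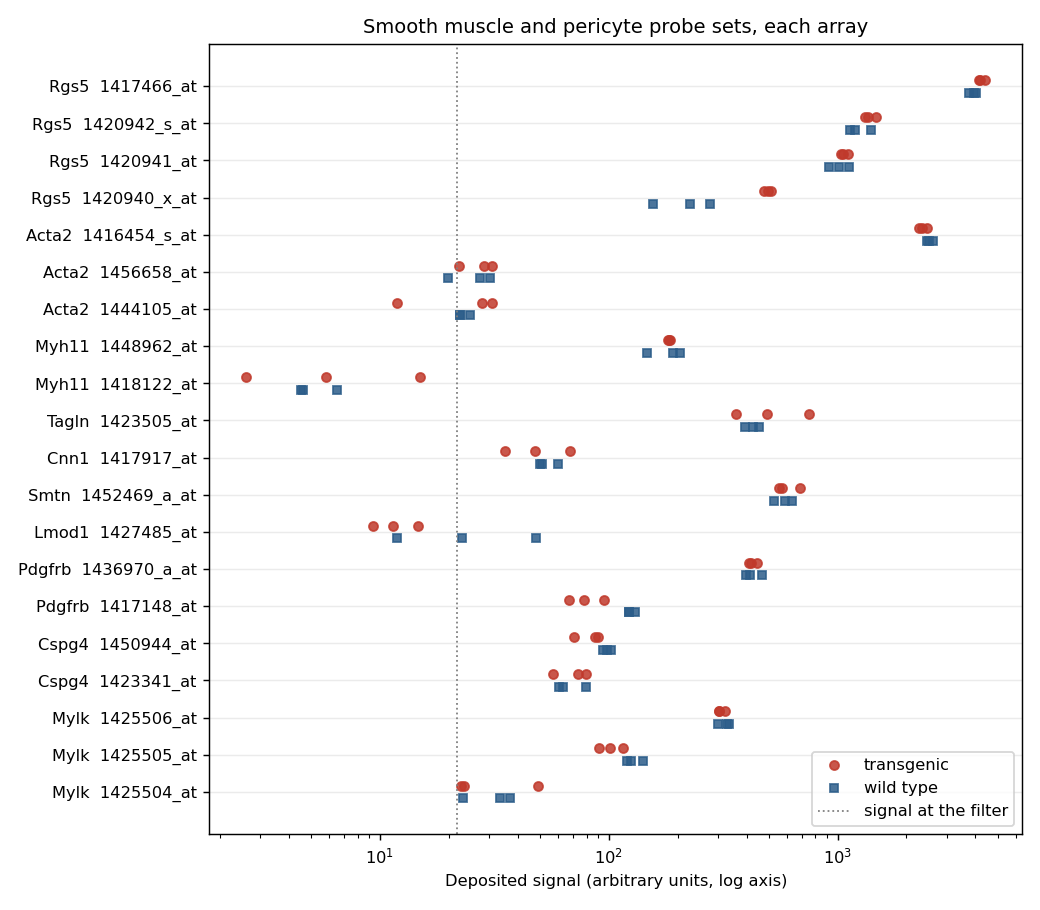
Signal of each of the 20 probe sets on each array, on a log axis in arbitrary units. Circles are the 3 transgenic arrays and squares, drawn just below them, the 3 wild type arrays, and the dotted line is the signal at the filter, about 21.7. The symbols of both genotypes lie close together for most probe sets, and they are clearly apart for Rgs5 1420940_x_at.

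Rgs5, a regulator of G protein signalling that shortens the response to vasoconstrictors and is abundant in pericytes, was measured by 4 probe sets that disagreed. Probe set 1420940_x_at had signals of 496, 478 and 513 in transgenic muscle, against 276, 156 and 226 in wild type muscle. All transgenic arrays were thus above all wild type arrays, and the wild type arrays spread far more than the transgenic ones. Mean signals were 496 ± 17.7 in transgenic and 220 ± 60.7 in wild type muscle (SD, n = 3 each). The log2 difference was 1.15 (95% interval 0.80 to 1.51), at an adjusted p of 0.0199 in limma.

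The brightest Rgs5 probe set, 1417466_at, gave 4196, 4159 and 4429 in transgenic muscle, against 3950, 4021 and 3764 in wild type muscle. The groups did not overlap here either, but the difference was small, at 1.09-fold, with an adjusted p of 0.636 in limma and a log2 interval of 0.00 to 0.25. Probe set 1420942_s_at gave 1361, 1318 and 1471 in transgenic and 1132, 1405 and 1194 in wild type muscle. These groups overlapped, with a 1.11-fold difference and an adjusted p of 0.715 in limma. Probe set 1420941_at gave 1054, 1039 and 1109 in transgenic and 1117, 1019 and 914 in wild type muscle. Its groups overlapped as well, at 1.05-fold with an adjusted p of 0.877 in limma. The upper bounds of the 95% intervals of these 3 probe sets were 1.19-fold, 1.27-fold and 1.20-fold, in the order given, below the lower bound of 1.74-fold for 1420940_x_at.

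**Figure D2:**
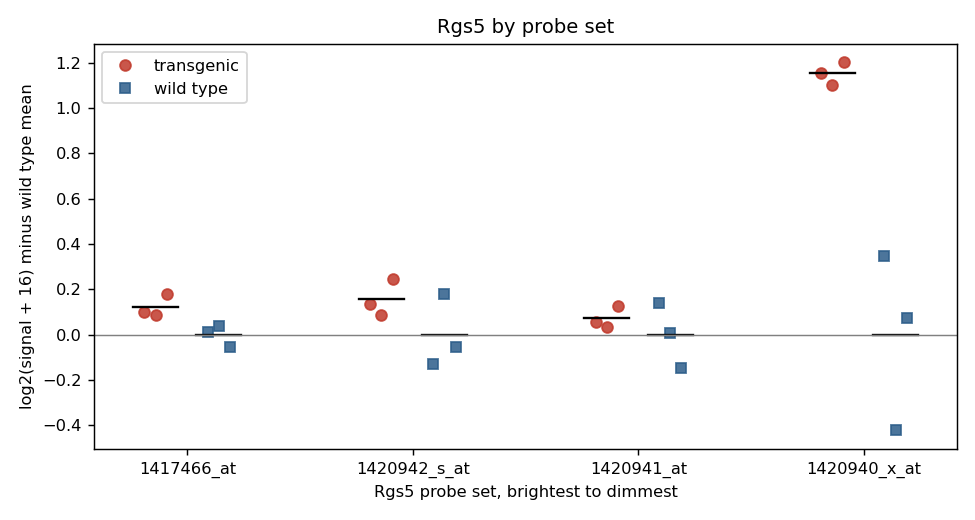
The 4 Rgs5 probe sets, from brightest to dimmest, with log2(signal + 16) on each array minus the wild type mean of that probe set. Circles are transgenic arrays, squares wild type arrays and bars group means. The transgenic mean lies 1.15 above the wild type mean for 1420940_x_at and 0.07 to 0.16 above it for the other probe sets.

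The disagreement was also read within each array, where scaling of the array cancels apart from the offset. The log2 value of 1420940_x_at minus that of 1417466_at was -3.04, -3.08 and -3.07 on the transgenic arrays, against -3.76, -4.55 and -3.96 on the wild type arrays. The transgenic arrays had nearly the same gap and the wild type arrays a wider and more variable one. The difference between genotypes in this gap was 1.03, with a two-sided exact permutation p of 0.1, the smallest that 3 against 3 arrays can give. The same gap against 1420942_s_at differed by 0.997 and against 1420941_at by 1.08, again with exact p of 0.1. Among the remaining 3 pairs, which leave out 1420940_x_at, differences were -0.03, 0.05 and 0.08, with exact p of 0.7 to 0.9. Over all 6 pairs the lowest adjusted p was 0.2 in these exact tests.

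In Affymetrix names the letter x marks a probe set in which some probes also match other transcripts, s marks one shared by similar transcripts, and a marks one that covers alternative transcripts of a gene. The annotation gives 1420940_x_at and 2 further Rgs5 probe sets the same source sequence, so that 3 of the 4 share it. Probe sequences were not used here, and the part of cross-hybridisation or of transcript ends in the disagreement was not tested.

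The called Rgs5 probe set kept its direction and a log2 difference of 0.94 to 1.33 over 18 alternative settings, and passed the threshold in 12 of them. The 12 included the fluidics module as a random block. No module was used for both genotypes, and that fit called 297 probe sets in all. The adjusted p of the Rgs5 probe set in limma was 0.0962 without transgenic replicate 1, 0.0573 without transgenic replicate 2 and 0.0798 without wild type replicate 3. It was 0.378 without an intensity trend in the variances, 0.0679 when dim probe sets were kept, and 0.101 in the arrays of hybridisation round 1. The rounds are not named in the labels and were inferred from the recorded hybridisation times. A new round was taken to start where more than 30 minutes passed between consecutive arrays. This gave 2 rounds that each held both genotypes. The log2 difference was 1.17 within round 1, which held 2 arrays of each genotype, and 1.13 within round 2, which held 1 of each.

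**Figure D3:**
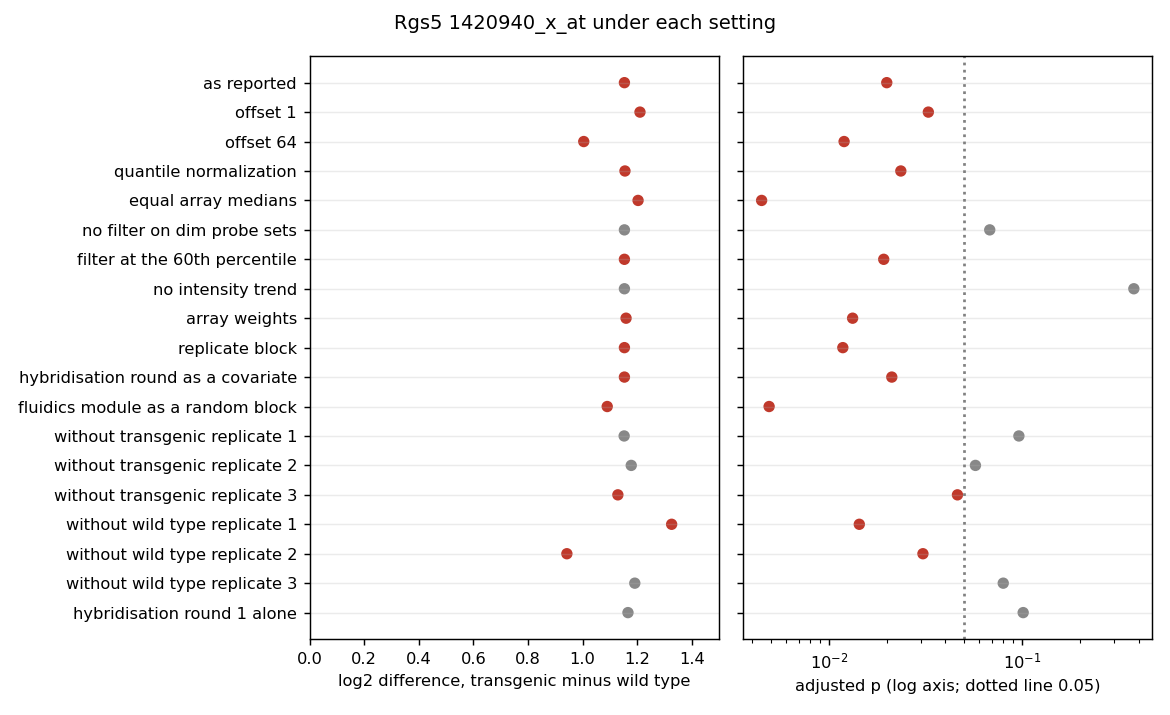
Rgs5 1420940_x_at under the reported setting and 18 alternatives, with the log2 difference, transgenic minus wild type, on the left and the adjusted p on a log axis on the right. Red points lie below an adjusted p of 0.05 and grey points above it. The difference stays between 0.94 and 1.33, while 6 alternatives lie above the threshold.

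By likeness over the 6 arrays, the 5 named probe sets outside the members that followed 1420940_x_at most closely were those of Zfand5, Mndal, Herpud1, Trip4 and Tacc3, with Pearson's r of 0.995, 0.992, 0.991, 0.990 and 0.988. The value is a description, since all 6 points share the split into genotypes, and 76 of 23111 probe sets reached 0.95. Mndal, an interferon-inducible nuclear protein, had signals of 181, 209 and 233 in transgenic and 74.8, 32.9 and 64.9 in wild type muscle. Herpud1, a protein of endoplasmic reticulum degradation, had 1889, 1912 and 1939 in transgenic and 1279, 1017 and 1267 in wild type muscle. In both, as in the Rgs5 probe set, wild type replicate 2 was the lowest array. They were chosen by likeness over these same arrays, so the shared lowest array is no separate observation.

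The contractile genes did not pass the test. Acta2, smooth muscle actin, gave 2278, 2328 and 2459 on its brightest probe set in transgenic muscle, against 2504, 2609 and 2448 in wild type muscle. Its groups overlapped, and the log2 difference was -0.10 (interval -0.23 to 0.04), at an adjusted p of 0.747 in limma. Actins are close to each other in sequence and this is an s probe set, so a share of its signal from other actins is uncertain. The other Acta2 probe sets were dim, at 22.1 to 30.8 in transgenic and 19.9 to 30.2 in wild type muscle for 1456658_at, and at 11.9 to 31.0 in transgenic and 22.4 to 24.7 in wild type muscle for 1444105_at.

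Myh11, the smooth muscle myosin heavy chain and the most specific contractile marker of the list, gave 181, 186 and 184 in transgenic muscle, against 191, 147 and 205 in wild type muscle. The transgenic arrays lay within the wild type range, with a log2 difference of 0.03 and an interval of -0.26 to 0.32. The second Myh11 probe set was at 2.61, 15.0 and 5.81 in transgenic and 4.50, 4.62 and 6.53 in wild type muscle, below the filter, and gives no measure of change.

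Tagln, the actin-binding protein transgelin, gave 493, 361 and 752 in transgenic muscle, against 394, 455 and 427 in wild type muscle. Transgenic replicate 3 was far above all other arrays and transgenic replicate 2 below all of them, so that the transgenic group spanned the wild type group. Mean signals were 535 ± 199 in transgenic and 425 ± 30.9 in wild type muscle (SD, n = 3 each), a log2 difference of 0.26 with an interval of -0.17 to 0.69. Without transgenic replicate 3 the log2 difference was -0.01, and without transgenic replicate 2 it was 0.50, and neither passed. Within hybridisation round 1 it was -0.00 and within round 2, which holds transgenic replicate 3, it was 0.79.

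Cnn1, calponin, which binds actin and slows the contraction cycle, gave 67.6, 47.7 and 35.2 in transgenic muscle, against 60.1, 49.9 and 51.3 in wild type muscle. Here transgenic replicate 3 was the lowest of all arrays, the opposite of its place for Tagln. The log2 difference was -0.10 with an interval of -0.57 to 0.37. Smtn, smoothelin, a cytoskeletal protein of contractile smooth muscle, gave 570, 553 and 684 in transgenic muscle, against 528, 587 and 630 in wild type muscle, a log2 difference of 0.05 with an interval of -0.18 to 0.27. Lmod1, leiomodin, which starts actin filaments in smooth muscle, gave 9.38, 11.4 and 14.7 in transgenic muscle, against 22.9, 48.3 and 11.9 in wild type muscle. Its groups overlapped, its mean lay below the filter, and it was therefore not tested.

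Mylk, the myosin light chain kinase, was measured by 3 probe sets. The brightest, 1425506_at, gave 322, 304 and 304 in transgenic muscle, against 330, 336 and 300 in wild type muscle, with a log2 difference of -0.05 and an interval of -0.26 to 0.16. Probe set 1425505_at gave 102, 115 and 90.7 in transgenic muscle, against 121, 125 and 142 in wild type muscle. All its transgenic arrays were below all wild type arrays, but the log2 difference of -0.30 (interval -0.60 to 0.01) did not pass, at an adjusted p of 0.655 in limma. The dimmest probe set, 1425504_at, gave 23.2, 49.3 and 22.6 in transgenic and 37.0, 33.4 and 23.0 in wild type muscle, and its groups overlapped.

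The receptor and surface markers of pericytes did not pass either, and the 2 probe sets of Pdgfrb gave unlike differences. Pdgfrb encodes the receptor beta for platelet-derived growth factor. Its brighter probe set, 1436970_a_at, gave 446, 418 and 410 in transgenic muscle, against 413, 468 and 398 in wild type muscle. The groups overlapped there, with a log2 difference of -0.00 and an interval of -0.21 to 0.20. The dimmer probe set, 1417148_at, gave 67.4, 78.1 and 95.7 in transgenic muscle, against 122, 123 and 131 in wild type muscle. All its transgenic arrays lay below all wild type arrays, and the log2 difference was -0.56, or 0.677-fold, with an interval of -0.90 to -0.23. In limma p was 0.00315 before adjustment and 0.313 after it.

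Within each array, the brighter minus the dimmer Pdgfrb value was 2.20 ± 0.268 in transgenic and 1.64 ± 0.151 in wild type muscle on the log2 scale (SD, n = 3 each). The difference between genotypes in this gap was 0.56 and was not tested. The dimmer probe set had a log2 difference of -0.65 within hybridisation round 1 and -0.40 within round 2, and -0.67 to -0.46 when an array was left out. It passed in 1 of 18 alternatives, the fluidics module as a random block, at an adjusted p of 0.0451 in limma. That fit called 297 probe sets in all, and no module was used for both genotypes.

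Cspg4, the proteoglycan NG2 on the pericyte surface, gave 89.4, 70.9 and 87.5 on 1450944_at in transgenic muscle, against 94.1, 97.9 and 102 in wild type muscle. The transgenic arrays were all below the wild type arrays, with a log2 difference of -0.22 (interval -0.54 to 0.11), at an adjusted p of 0.780 in limma. On 1423341_at it gave 79.5, 73.6 and 57.0 in transgenic and 60.8, 62.9 and 79.9 in wild type muscle, and there the groups overlapped, with a log2 difference of 0.03.

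**Figure D4:**
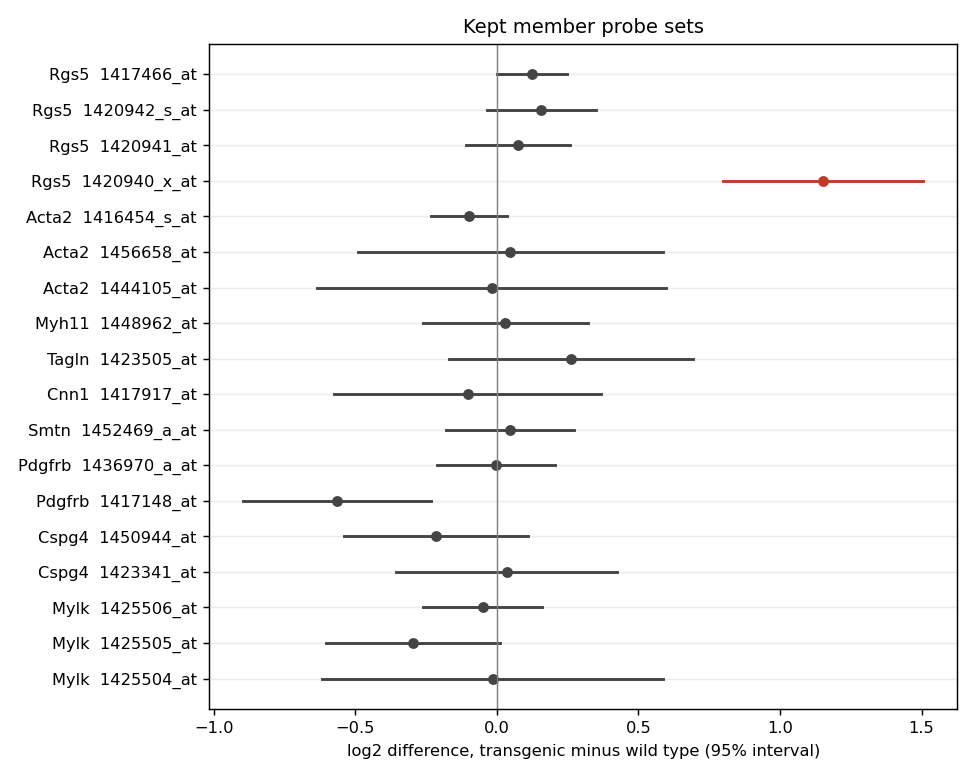
Log2 difference, transgenic minus wild type, of the 18 tested member probe sets, with 95% intervals from limma. Red marks the probe set with an adjusted p under 0.05. Of the 18 intervals, 17 lie wholly within 1 log2 unit of no difference, and that of Rgs5 1420940_x_at runs from 0.80 to 1.51.

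Across the members, transgenic and wild type arrays were fully apart for 5 of 18 probe sets, 2 higher and 3 lower, while the share over all probe sets tested was 13.4%, with 5.85% higher and 7.5% lower. The 5 were 2 probe sets of Rgs5 and 1 each of Pdgfrb, Cspg4 and Mylk. An unadjusted p under 0.05 was found for 3 of 18, against 7.85% of all tested. Without 1420940_x_at, the 17 remaining differences ran from -0.56 to 0.26 with a median of -0.00. By the brightest tested probe set of each of 9 genes, the median was also -0.00 and the range -0.22 to 0.26, with a median half-width of the 95% interval of 0.23.

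Other genes of the same cells and pathway gave no called probe set. Of 22 further contractile and relaxation genes 18 were tested by their brightest probe set, 0 passed in either direction in limma, 1 had an unadjusted p under 0.05, and 13 of 18 differences were negative, with a median of -0.09. The smallest p belonged to Myl9, the regulatory light chain of smooth muscle myosin, with signals of 1079, 1013 and 1319 in transgenic and 1413, 1269 and 1498 in wild type muscle. Actg2, the enteric smooth muscle actin, gave a log2 difference of -0.23, and Gucy1a1, a subunit of the nitric oxide receptor that relaxes smooth muscle, one of -0.18. Adjusted p in limma was 0.486 for Myl9, 0.698 for Actg2 and 0.756 for Gucy1a1.

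Of 12 further pericyte markers 11 were tested, 0 passed in either direction, 1 had an unadjusted p under 0.05, and 10 of 11 differences were negative, with a median of -0.17. Mcam, the adhesion molecule CD146 of mural and endothelial cells, gave 128, 110 and 137 in transgenic muscle, against 168, 161 and 167 in wild type muscle. Its groups did not overlap, and the log2 difference of -0.37 did not pass, at an adjusted p of 0.491 in limma. Higd1b, used as a pericyte marker, gave a log2 difference of -0.31, and Kcnj8, a pore subunit of the potassium channel of vascular mural cells, one of -0.18. The summed signal of the 12 markers was 4172 to 4390 in transgenic and 4463 to 4706 in wild type muscle, but Abcc9, the regulatory subunit of that channel, made up 56.4% of it. Without Abcc9 the sums overlapped, at 1658 to 2101 in transgenic and 1874 to 2119 in wild type muscle. Abcc9 had mean signals of 2473 in transgenic and 2523 in wild type muscle, against 215 and 245 for Kcnj8. A share of the Abcc9 signal from muscle fibres was not tested. The members' own sum was 8439 to 9358 in transgenic and 8337 to 8819 in wild type muscle, with overlap.

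Ligands and receptors of mural cell recruitment comprised 15 genes, all tested, with 0 called, 1 at an unadjusted p under 0.05 and a median of -0.05. S1pr1, the sphingosine 1-phosphate receptor of endothelial cells, gave 204, 246 and 229 in transgenic muscle, against 191, 167 and 145 in wild type muscle, which is 0.40 on the log2 scale (adjusted p 0.433 in limma). Angpt1, the angiopoietin that mural cells make for the endothelial receptor Tek, gave -0.16, and Tgfbr2, a receptor for transforming growth factor beta, gave -0.14. Of 14 transcription factors 12 were tested, 0 passed, 1 had an unadjusted p under 0.05, and 6 differences were positive and 6 negative. Hey1, a Notch target, gave 43.4, 48.9 and 35.0 in transgenic and 67.7, 77.7 and 64.3 in wild type muscle, which is -0.56 on the log2 scale (adjusted p 0.450 in limma). Mef2c, which skeletal muscle also uses, gave -0.13 and Gata6 gave 0.35.

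Of 20 other members of the Rgs family 14 were tested, 0 passed, 1 had an unadjusted p under 0.05, and 10 of 14 differences were negative. Rgs4, which is the next protein-coding gene to Rgs5 in the RefSeq table, gave 99.9, 76.7 and 112 in transgenic muscle, against 128, 133 and 137 in wild type muscle. Its arrays did not overlap, and the log2 difference of -0.42 did not pass (adjusted p 0.525 in limma). It was opposite in sign to all 4 Rgs5 probe sets. Rgs7 gave -0.57 and Rgs9 -0.41, with adjusted p of 0.668 and 0.749 in limma.

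Among markers of other cells in the same RNA none passed over all genes in limma. The signs of differences depended in part on the scaling, and 52.6% of all probe sets tested were negative as deposited and 41.3% with equal array medians. The counts of negative markers in these lists were the same or lower with equal medians. With equal medians, negative differences were found for 8 of 13 endothelial, 5 of 10 fibroblast, 5 of 7 macrophage, 2 of 4 Schwann cell and 9 of 11 muscle fibre markers, and for 9 of 11 pericyte, 11 of 18 contractile and 9 of 14 Rgs genes. The values that follow are as deposited. All 13 endothelial markers were tested, 9 with negative differences, with summed signals of 3019 to 3381 in transgenic and 3225 to 3568 in wild type muscle. Tek gave 243, 258 and 268 in transgenic and 330, 337 and 331 in wild type muscle, which is -0.36 on the log2 scale (adjusted p 0.313 in limma). Of 10 fibroblast markers 7 were negative, with sums of 45570 to 50089 in transgenic and 50717 to 52353 in wild type muscle. Of 7 macrophage markers 6 were negative, with sums of 5188 to 5526 in transgenic and 5530 to 5934 in wild type muscle. Of 7 Schwann cell markers 4 were matched and 3 of these were negative, with sums of 4589 to 5118 in transgenic and 4539 to 4924 in wild type muscle. Of 11 muscle fibre markers 9 were negative, with sums of 188333 to 197303 in transgenic and 205079 to 208951 in wild type muscle. An unadjusted p under 0.05 in limma was found for 2 endothelial, 3 fibroblast, 1 macrophage, 0 Schwann cell and 6 muscle fibre markers. Gsn made up 26.4% of the fibroblast sum, and without it those sums overlapped. Tpm2 made up 48.5% of the contractile sum, which overlapped with it. When Tpm2 was left out, that sum was 9410 to 9775 in transgenic and 9822 to 10033 in wild type muscle. Synpo2 was the brightest of the rest, with mean signals of 3830 in transgenic and 3688 in wild type muscle. A share of the Tpm2 and Synpo2 signals from muscle fibres was not tested. The Rgs, macrophage and muscle fibre sums stayed lower on all transgenic arrays without their brightest gene. With equal array medians the sums of every list overlapped between genotypes, also without the brightest gene. The part of these cells in the members' values was not tested.

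**Figure D5:**
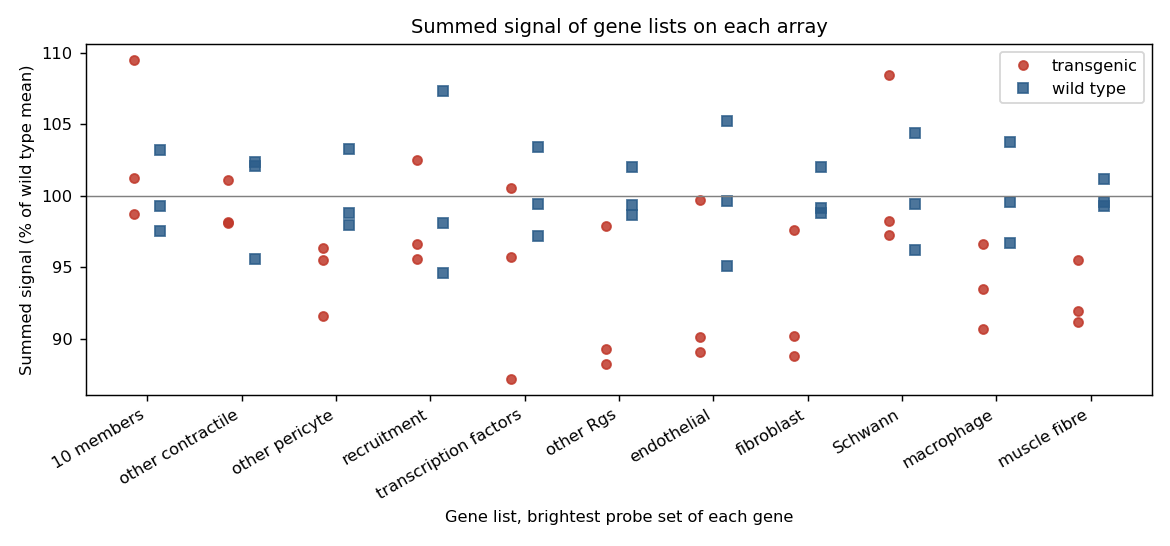
Summed signal of each gene list on each array, over the brightest probe set of each gene, as a percent of the list's wild type mean. Circles are transgenic and squares wild type arrays. The members overlap between genotypes. As deposited, the sums of 5 other lists are lower on all transgenic arrays, by a narrow gap for macrophages (5526 against 5530), and with equal array medians the sums of all 11 lists, members included, overlap. Which lists lie apart as deposited changes when the brightest gene of each list is left out.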

How the data were processed

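Transcripts were measured on 6 arrays, 3 of each genotype, and groups were taken from the sample titles. The authors deposited linear signal intensity values. The submitters' processing notes name GCOS 1.1.1, and its algorithm and scaling target were not stated in the sources. On every array the deposited intensity averaged 150.0 after 2% was trimmed at each end, and scaling to a common mean hides any change shared by most transcripts. No detection calls were used.

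Of 45101 rows, 64 control rows were left out. Values were taken as log2(signal + 16), which understates the change of dim transcripts, with no further normalization. limma 3.58.1 in R 4.3.3 was fitted over the 27022 probe sets above the filter, with an intensity trend in the variances, no covariates and two-sided tests. It was tested on simulated data. Gene names came from the platform annotation, updated through gene identifiers to RefSeq (GRCm38.p6), where 34741 of 34945 probe sets with 1 symbol matched. List genes without such a probe set were not analysed here.

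The members and lists were chosen with earlier results of these data known. Named genes were all members with each probe set, Itga7, up to 3 genes of smallest p in each other list, of which a part is given, and the 5 probe sets most like the called Rgs5 one. Same-numbered pools were not paired, since their deviations from the group means correlated at 0.003 to 0.060, under the limit of 0.1. Alternatives were offsets, normalizations, filters, variance models, blocks for replicate number, hybridisation round and fluidics module, and leaving out each array. The number of arrays limits the precision.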

Additional observations from a re-analysis of the deposited data

How the results depend on the processing

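The call of Rgs5 1420940_x_at was lost, with a log2 difference of 1.15 in both, with no filter on dim probe sets (adjusted p 0.0679) and without the intensity trend (0.378), and with the arrays of hybridisation round 1 only, an alternative added after seeing the data, at 1.17 (0.101). Leaving out each array gave 0.94 to 1.33. The members then had 0 or 1 called probe sets in limma, 0 under each of these 3 settings, and 2 with a random block for the fluidics module, which added the dimmer Pdgfrb probe set and gave 2 calls among the related lists, where every other setting gave 0. Over all probe sets, 33 calls became 50 with equal array medians, 17 with no filter, 1 without the trend and 297 with the module block, whose estimated correlation was -0.436, and 18 to 39 when an array was left out. Without wild type replicate 1 there were 19 and without wild type replicate 2 there were 18. The members' median difference of 0.01 ran from -0.042 to 0.037 when an array was left out, the low end without wild type replicate 3. With the replicate block, 36 probe sets passed in all, the member count stayed at 1, and the Rgs5 probe set gave 1.15 with an adjusted p of 0.0118. Same-numbered pools share only a number. Among the other 17 tested member probe sets, 10 changed sign under some setting without passing, Tagln and Cnn1 among them, both without transgenic replicate 3 and in round 1. Dim probe sets, those of Lmod1 and the second of Myh11 above all, limit what can be said. The cause of the lost calls was not tested.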

Other observations

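The protein-coding genes next to Rgs5 in the order of the RefSeq table were set beside it, a choice made after the values were seen. Of the 10 nearest with a tested probe set, 5 on each side, 0 passed in limma, and their brightest probe sets gave log2 differences of -0.42 (Rgs4) to 0.35 (Aldh9a1), 5 positive and 5 negative. Mndal and Herpud1 were both called, at adjusted p of 0.0133 and 0.0126 in limma, and both were among the probe sets most like the called Rgs5 one. Mndal lies on the same chromosome as Rgs5, 97 protein-coding genes further on in that table. The position of Herpud1 is not given here, and a link between position and likeness was not tested.

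The spread within a genotype differed between members. The SD of log2(signal + 16) for Rgs5 1420940_x_at was 0.0498 within transgenic and 0.390 within wild type muscle, for Tagln 0.516 within transgenic and 0.102 within wild type muscle, and for Myh11 1448962_at 0.0188 within transgenic and 0.230 within wild type muscle. With 3 arrays a group these SDs are themselves imprecise and were not compared by a test.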
